A study of Homo sapiens with 40 samples.

Results

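Loss of HINFP was set against loss of its 2 partners in histone gene control, CASP8AP2 and NPAT, in U2OS osteosarcoma cells on day 3 after transfection with siRNA. The comparison used 6 of the 40 arrays of the series, chosen by their labels: the 2 arrays with HINFP siRNA were compared with the mean of the 2 group means of CASP8AP2 siRNA (2 arrays) and NPAT siRNA (2 arrays), for all 22069 Ensembl genes on the array. No array with control siRNA entered the difference, so a gene stands out when HINFP siRNA left it at another level than the other knockdowns did. The values of the 2 control arrays, or differences from them, are given for part of the genes described. The difference of HINFP siRNA from the other knockdowns was also computed in hTERT-RPE1 cells from 6 other arrays.

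The study examined whether tumor cells and normal cells respond differently when regulators of histone genes are lost. U2OS cells come from an osteosarcoma, and hTERT-RPE1 cells are retinal pigment epithelial cells from normal tissue that were immortalized with telomerase. All groups received pooled siRNA at 15 nM, against HINFP, CASP8AP2 or NPAT or with no target in the case of the control, and a knockdown lowers a transcript without removing it. Both replicates of a day 3 group came from parallel transfections, and the p-values therefore measure the spread between these and not that between separate experiments.

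HINFP is a zinc finger protein that binds promoters of histone H4 genes and recruits NPAT, a coactivator that cyclin E and CDK2 phosphorylate when cells enter S phase. CASP8AP2, also called FLASH, sits with NPAT in the histone locus body and takes part in the 3′ end processing of histone messages that carry no poly(A) tail. Replacement histones, in contrast, are made outside S phase as well and mostly from polyadenylated messages.

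Replicate arrays of the U2OS groups correlated with r between 0.995 and 0.997. Array means lay between 5.87 and 5.88 on the log2 scale, so a change of all transcripts together could not be seen, and each difference is one between genes. Symbols were used for 1921 genes (8.7%), and the canonical histone genes were not among them, so those are not described by name. Of 9 markers listed for U2OS cells, 4 had a symbol. With control siRNA, CDH2 was at 9.29, RUNX2 at 7.87 and MSX2 at 6.25, whereas COL1A2 was at 4.00, close to the lower end of the array. RUNX2 and CDH2 were higher still in hTERT-RPE1 cells with control siRNA (9.67 and 11.00), and COL1A2 was at 4.20 there. MSX2 was lower in hTERT-RPE1 cells (4.96), the direction that a marker of U2OS cells should have. The markers of retinal pigment epithelium were low in both lines with control siRNA. BEST1 was at 3.99 in each, and RLBP1 was at 3.55 in U2OS and 3.78 in hTERT-RPE1 cells. MSX2 thus separated the lines in the direction of its list, but RUNX2 and CDH2 differed in the opposite direction. No marker of U2OS cells was called in the comparison.

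The siRNAs acted on their own targets. HINFP was at 5.61 and 5.07 with HINFP siRNA, at 6.95 and 7.16 with CASP8AP2 siRNA and at 6.73 and 6.67 with NPAT siRNA. Both HINFP siRNA arrays lay below all others, although they differed from each other by more than the arrays of either comparator did. The transcript was 1.54 lower than with the comparators (SE 0.13, limma adjusted p 3.39e-05), or 34.4% of their level. CASP8AP2 was at 5.54 and 5.73 with its own siRNA, against 7.04 and 6.77 with HINFP siRNA and 6.85 and 6.78 with NPAT siRNA. NPAT was at 6.92 and 7.15 with its own siRNA, against 8.60 and 8.42 with HINFP siRNA and 8.48 and 8.58 with CASP8AP2 siRNA. Each targeted transcript was lower with its own siRNA than with either of the other siRNAs, and all 6 of these tests were called. CASP8AP2 and NPAT therefore had positive differences in the comparison (0.68 and 0.73), which come from their own knockdown: HINFP siRNA differed from control siRNA by 0.09 for CASP8AP2 (adjusted p 0.708) and by -0.11 for NPAT (adjusted p 0.637).

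With HINFP siRNA, 1108 genes differed from the comparators at an adjusted p under 0.05, 5.02% of all genes (611 higher, 2.77%, and 497 lower, 2.25%). After each array was centred on its median, 751 were higher and 380 lower. The median size of a called difference was 0.47 on the log2 scale, the range over all genes was -1.82 to 2.54, and 53 called genes reached an absolute difference of 1. When the spread was taken from the 6 arrays alone in place of all 16 day 3 arrays, 323 genes were called, and with the 8 U2OS arrays 578. The count was 738 without CASP8AP2 siRNA replicate 1, 516 without HINFP siRNA replicate 1 and 297 without HINFP siRNA replicate 2.

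A difference from the mean of the comparators can come from either one. HINFP siRNA differed from CASP8AP2 siRNA for 1235 genes (5.6%) and from NPAT siRNA for 892 (4.04%), while CASP8AP2 and NPAT siRNA differed from each other for 773 (3.5%). Of the 1108 genes, 386 were called against CASP8AP2 siRNA only, 305 against NPAT siRNA only, 87 against neither alone, and 330 against both. For each of these 330 genes (1.5% of all genes) the differences had the same sign and both HINFP siRNA arrays lay outside the range of the 4 comparator arrays. Of all genes, 23.6% had the HINFP siRNA arrays outside that range, 11.4% above and 12.2% below it, whether called or not. These 330 genes are referred to below as beyond both comparators, 180 higher (0.816%) and 150 lower (0.68%) with HINFP siRNA. After centring on the median they were 229 and 117. Their number was 61 with the spread of the 6 arrays, 147 with that of the 8 U2OS arrays, 147 without CASP8AP2 siRNA replicate 1, 142 and 146 without NPAT siRNA replicates 1 and 2, and 173 and 115 without HINFP siRNA replicates 1 and 2.

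**Figure D1:**
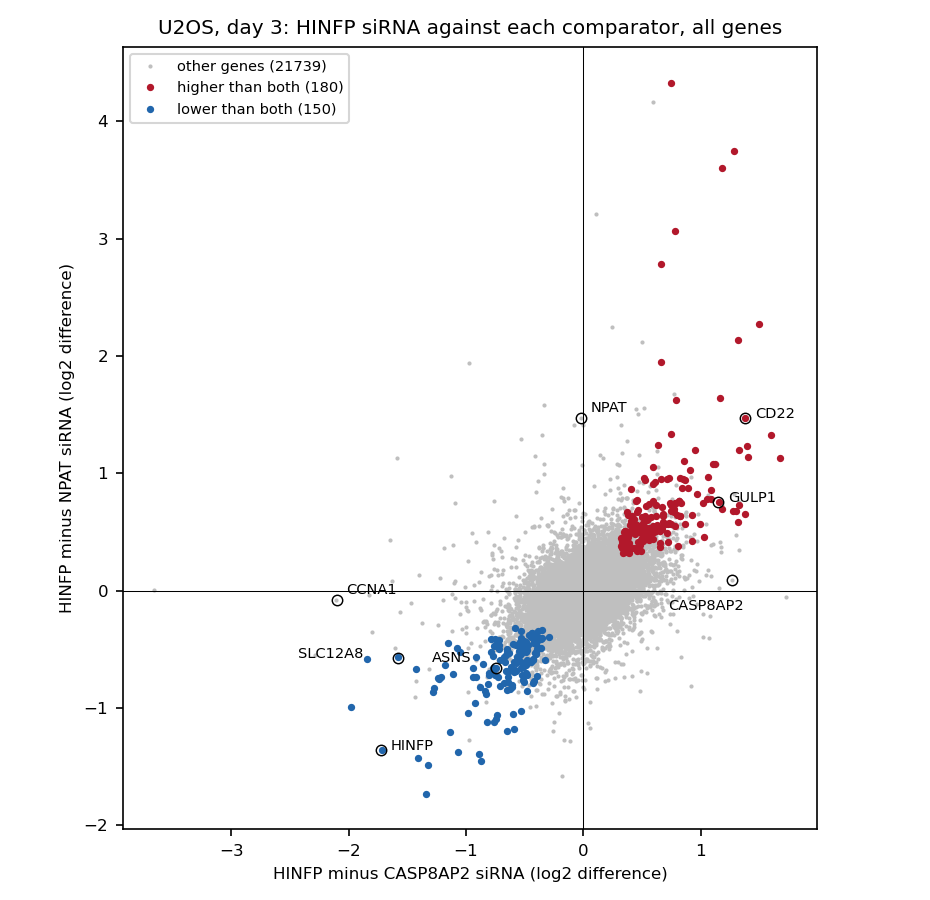
Each point is 1 of the 22069 genes in U2OS cells on day 3, with the log2 difference of HINFP siRNA from CASP8AP2 siRNA on the x axis and from NPAT siRNA on the y axis. Both axes use the same HINFP siRNA arrays, so the diagonal spread of all genes is built in. The 180 genes higher than both comparators are red and the 150 lower ones are blue, and circled genes are named in the text. CASP8AP2 and NPAT lie near one axis each because each is lowered in 1 comparator.

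The extremes of the whole table show how a single comparator weighs on the mean. The largest fall was that of ENSG00000139679, which has no symbol here. It was at 3.95 and 4.00 with HINFP siRNA, at 3.82 and 4.11 with NPAT siRNA and at 3.64 and 3.72 with control siRNA, but at 7.86 and 7.41 with CASP8AP2 siRNA. Its difference of -1.82 (SE 0.15, adjusted p 3.15e-05) thus rests on CASP8AP2 siRNA alone, and against NPAT siRNA it was 0.01 (adjusted p 0.992). The largest rise, that of ENSG00000185339, was beyond both comparators. The HINFP siRNA arrays were at 10.68 and 10.22, the CASP8AP2 siRNA arrays at 9.96 and 9.45, the NPAT siRNA arrays at 6.25 and 5.98 and the control arrays at 5.70 and 5.80. HINFP and CASP8AP2 siRNA raised it far above control (4.70 and 3.96), while the difference with NPAT siRNA was 0.37 (adjusted p 0.317), so the difference of 2.54 (SE 0.17, adjusted p 7.88e-06) is mostly that from NPAT siRNA (4.33) and only 0.74 from CASP8AP2 siRNA (adjusted p 0.0473).

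Among the 1921 genes with a symbol 127 were called (6.61%), 65 higher (3.38%) and 62 lower (3.23%). Of these 1921 genes, 37 (1.93%) were beyond both comparators, 16 lower and 21 higher, with HINFP itself among the lower ones. The other genes are described by what they encode, the lower ones first.

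The genes lower than both comparators included 5 enzymes and transporters of amino acids, which were grouped after their values were seen. ASNS, asparagine synthetase, was at 8.34 on both HINFP siRNA arrays, at 9.20 and 8.97 with CASP8AP2 siRNA, at 9.06 and 8.94 with NPAT siRNA and at 8.63 and 8.51 with control siRNA. The HINFP siRNA arrays were lowest, the control arrays next, and the arrays of both comparators lay above control and overlapped each other. The difference was -0.70 (SE 0.09, adjusted p 0.00101). CASP8AP2 siRNA changed 18.9% of all genes from control and NPAT siRNA 8.13%. ASNS rose with CASP8AP2 siRNA (0.52, adjusted p 0.00484) and with NPAT siRNA (0.43, adjusted p 0.0261) relative to control, while its difference from control with HINFP siRNA was -0.23 (adjusted p 0.226).

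SLC1A5, the glutamine transporter ASCT2, was at 9.82 and 9.86 with HINFP siRNA, at 10.57 and 10.52 with CASP8AP2 siRNA, at 10.46 and 10.40 with NPAT siRNA and at 10.24 and 10.14 with control siRNA. It had the same order as ASNS, and here the fall from control with HINFP siRNA was called (-0.35, adjusted p 0.0229). The rise from control was called with CASP8AP2 siRNA (0.35, adjusted p 0.0135) but not with NPAT siRNA (0.24, adjusted p 0.125). The difference from the comparators was -0.65 (SE 0.08, adjusted p 0.000475). SLC7A11, the cystine transporter of system xc-, was at 9.24 and 9.49 with HINFP siRNA, at 10.18 and 10.07 with CASP8AP2 siRNA, at 9.84 and 9.82 with NPAT siRNA and at 9.84 and 9.71 with control siRNA. NPAT siRNA left it at the control level, and HINFP siRNA lowered it from control (-0.41, adjusted p 0.0366). Its difference was -0.61 (SE 0.10, adjusted p 0.00344), and it was no longer called without HINFP siRNA replicate 1 (-0.49, adjusted p 0.0547).

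PHGDH, the first enzyme of serine synthesis from glucose, was at 9.93 and 10.06 with HINFP siRNA, at 10.48 and 10.46 with CASP8AP2 siRNA, at 10.45 and 10.48 with NPAT siRNA and at 10.26 and 10.31 with control siRNA. The HINFP siRNA arrays lay below the control arrays and the comparator arrays above them, but no difference from control was called (-0.30 with HINFP siRNA, adjusted p 0.148, 0.18 with CASP8AP2 siRNA, adjusted p 0.336, and 0.18 with NPAT siRNA, adjusted p 0.440). Its difference was -0.47 (SE 0.10, adjusted p 0.0174), and it was lost without HINFP siRNA replicate 1 (-0.41, adjusted p 0.145) or replicate 2 (-0.54, adjusted p 0.0795). SLC7A8, the neutral amino acid transporter LAT2, was at 5.07 and 5.09 with HINFP siRNA, within the control range of 4.91 to 5.10, and between 5.48 and 5.92 with the comparators (difference -0.60, SE 0.09, adjusted p 0.00229). For SLC7A8 the comparators had moved from control and HINFP siRNA had not.

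ASNS, SLC7A11 and PHGDH belong to a list of 36 genes that respond to ATF4, the transcription factor of amino acid shortage, or to unfolded proteins. Of the 13 members with a symbol, these 3 were lower and none was higher, against 3.23% lower among all genes with a symbol and 2.25% among all genes. The median difference of the 13 was -0.13, against -0.01 for all genes. Members that act in the endoplasmic reticulum were not called, with HSPA5 (the chaperone BiP) at -0.09, HERPUD1 at 0.14 and DNAJB9 at 0.22. SLC7A1, a transporter of cationic amino acids, was at -0.09 (adjusted p 0.587) and was not called either. MTHFD2, a mitochondrial enzyme of folate metabolism, was at -0.09 (adjusted p 0.662), and the transcription factors CEBPB and CEBPG were at -0.19 and -0.13.

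**Figure D2:**
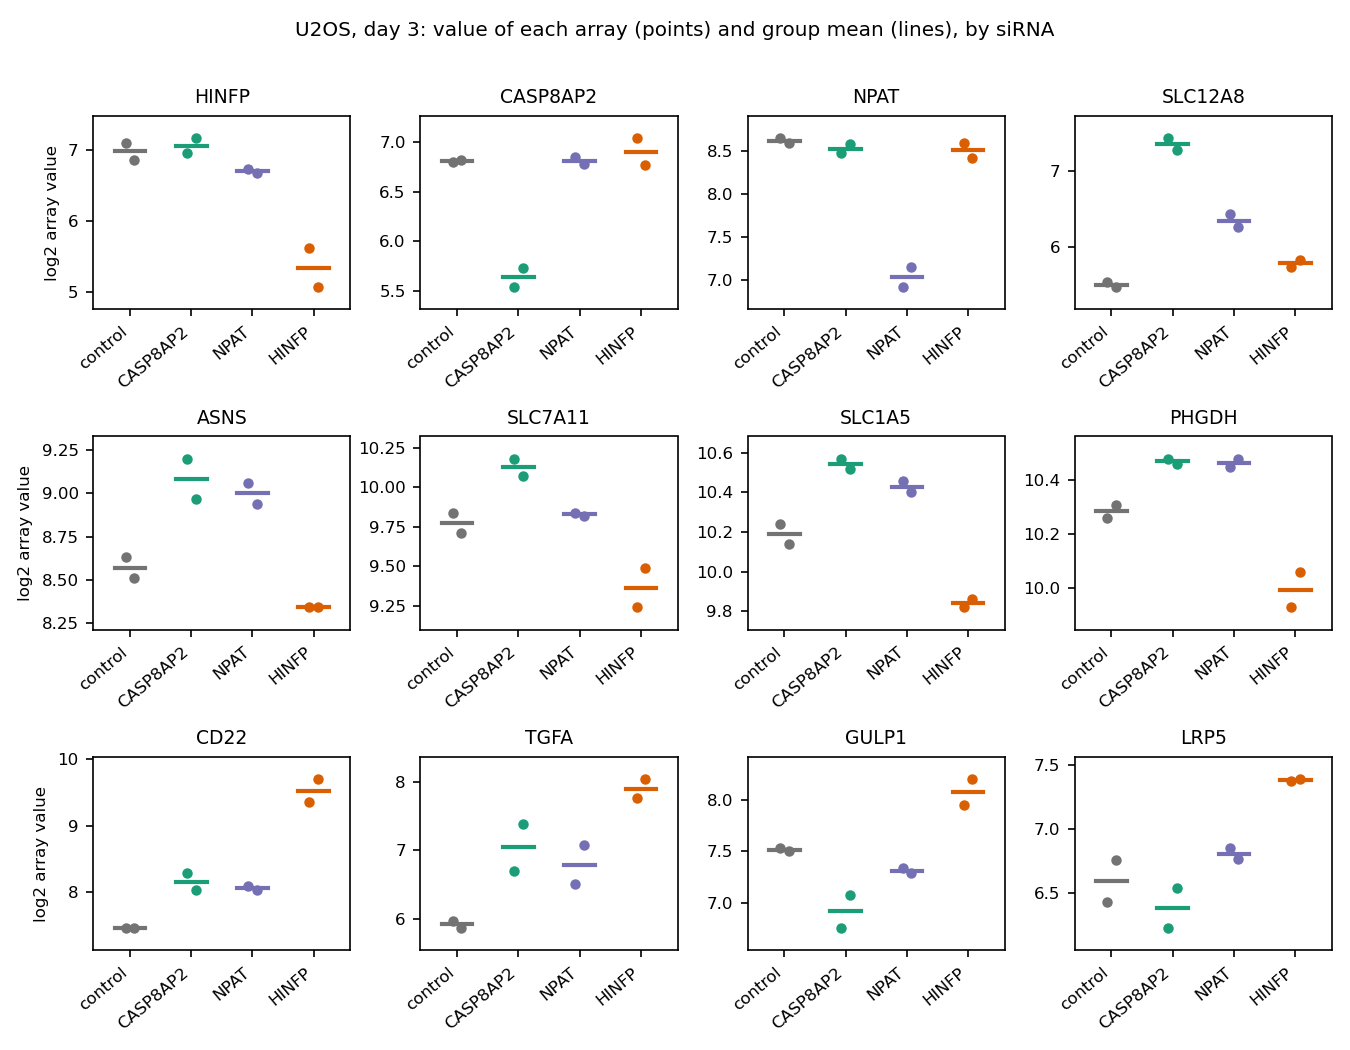
Log2 value of each of the 8 U2OS arrays of day 3 (points, 2 per siRNA) and the mean of each group (lines) for 12 genes, each with its own y axis. The top row holds the 3 targeted genes and SLC12A8, the middle row amino acid genes that were lowest with HINFP siRNA, and the bottom row the 4 largest rises among genes with a symbol beyond both comparators. In the last 2 rows the HINFP siRNA points lie outside all other points.

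Promoters are printed for the amino acid genes ASNS, SLC1A5 and PHGDH because amino acid response elements, to which ATF4 binds, are known in this group. That of SLC7A8 is not shown. The sequences are those of RefSeq on GRCh38.p14, from 250 bases before to 50 bases after a start, printed 5′ to 3′ in the direction of the gene. Capitals mark the letters TGATGNAA (N is any base, either strand), a core of such elements that was searched after the values were known. ASNS has 2 listed starts, SLC1A5 has 3 and PHGDH has 1. The window shown for SLC1A5 is that of its start with a match, the others are the first start of each gene, and SLC7A11 had no entry in the table.
ASNS, chr7:97872359-97872658, minus strand: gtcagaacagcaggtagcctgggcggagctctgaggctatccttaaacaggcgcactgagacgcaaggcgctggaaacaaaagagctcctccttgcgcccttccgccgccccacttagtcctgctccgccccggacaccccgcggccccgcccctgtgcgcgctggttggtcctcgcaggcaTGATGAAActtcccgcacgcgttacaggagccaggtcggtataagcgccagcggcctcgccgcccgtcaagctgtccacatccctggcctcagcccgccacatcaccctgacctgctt
SLC1A5, chr19:46784765-46785064, minus strand: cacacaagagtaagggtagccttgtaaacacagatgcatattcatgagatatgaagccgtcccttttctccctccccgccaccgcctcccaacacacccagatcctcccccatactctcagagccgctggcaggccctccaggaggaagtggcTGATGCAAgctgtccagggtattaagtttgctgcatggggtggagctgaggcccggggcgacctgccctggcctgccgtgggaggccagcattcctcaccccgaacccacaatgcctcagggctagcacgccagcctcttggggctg
PHGDH, chr1:119711684-119711983, plus strand: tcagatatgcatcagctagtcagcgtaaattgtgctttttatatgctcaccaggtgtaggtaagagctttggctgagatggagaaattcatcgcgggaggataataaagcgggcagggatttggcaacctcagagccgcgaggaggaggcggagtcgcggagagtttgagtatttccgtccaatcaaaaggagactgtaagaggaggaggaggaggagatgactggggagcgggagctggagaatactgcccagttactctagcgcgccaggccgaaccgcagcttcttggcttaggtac

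The match in ASNS (TGATGAAA) began 68 bases before the start and that in SLC1A5 (TGATGCAA) 97 bases before it. PHGDH had no match. These letters were held by 3.62% of the 35116 promoters listed, and by 3.43% of 1485 genes with a symbol at any listed start. Of the 37 genes beyond both comparators 30 had a promoter listed. The letters were found in 2 of 12 that were lower (16.7%) and in 1 of 18 that were higher (AHCYL2, 5.56%), which are small numbers. The letters ACGTCCG, the core of the site that HINFP binds, on either strand were in none of the 30, against 1.33% of all promoters and 2.29% of genes with a symbol. A match or its absence in these windows is a property of the letters and not a measurement of binding.

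The remaining genes lower than both comparators encode proteins of several kinds. TXLNA, alpha-taxilin, a binding partner of syntaxins in vesicle traffic, was at 8.78 and 8.71 with HINFP siRNA and between 9.55 and 9.68 with the comparators (difference -0.85, SE 0.08, adjusted p 0.000121). PTGS2, the inducible cyclooxygenase of prostaglandin synthesis, was at 5.66 and 5.88 with HINFP siRNA and between 6.46 and 6.71 with the comparators (-0.84, adjusted p 0.000761). CA13, a cytosolic carbonic anhydrase, was at 7.91 and 8.00 against 8.68 to 8.95 (-0.82, adjusted p 0.000276). All of these lay below the control arrays too. ORC1L (now ORC1), the large subunit of the origin recognition complex, was at 7.77 and 7.64 against 8.07 to 8.34 with the comparators and 8.38 and 8.28 with control siRNA (-0.51, SE 0.09, adjusted p 0.00864), and its call was lost without HINFP siRNA replicate 2 (-0.44, adjusted p 0.120). PROCR, the endothelial receptor of protein C, was at 8.38 and 8.56 against 8.91 to 9.14 with the comparators (-0.52, SE 0.08, adjusted p 0.00297), and it fell from control as well (-0.77, adjusted p 0.000282). The deubiquitinase USP11 had a difference of -0.57 (adjusted p 0.00397), lost without HINFP siRNA replicate 1 (-0.52, adjusted p 0.0505).

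In other genes HINFP siRNA was closer to control than the comparators were. SLC12A8, of the cation-chloride cotransporter family, was at 5.73 and 5.83 with HINFP siRNA, at 7.44 and 7.28 with CASP8AP2 siRNA, at 6.43 and 6.26 with NPAT siRNA and at 5.53 and 5.47 with control siRNA. CASP8AP2 siRNA raised it from control by 1.85 (adjusted p 5.83e-07) and NPAT siRNA by 0.84 (adjusted p 0.000937), and the difference with HINFP siRNA was 0.27 (adjusted p 0.175). The difference from the comparators was -1.07 (SE 0.10, adjusted p 8.30e-05). SNAI1, a repressor of E-cadherin in epithelial-mesenchymal transition, rose from control with all siRNAs, by 0.76 with HINFP siRNA, 1.25 with CASP8AP2 siRNA and 1.47 with NPAT siRNA. The rise was smaller with HINFP siRNA (-0.60, SE 0.11, adjusted p 0.00946), and this was lost without HINFP siRNA replicate 1 (-0.53, adjusted p 0.0957) or replicate 2 (-0.66, adjusted p 0.0551).

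Of the genes higher than both comparators, CD22 had the largest difference among those with a symbol. CD22 encodes a lectin that binds sialic acid and is best known from the surface of B cells. It was at 9.35 and 9.70 with HINFP siRNA, at 8.28 and 8.02 with CASP8AP2 siRNA, at 8.09 and 8.02 with NPAT siRNA and at 7.45 on both control arrays. The HINFP siRNA arrays were highest and the comparators lay between them and control. The difference was 1.43 (SE 0.15, adjusted p 0.000205), a level 2.69 times that in the comparators. The list of markers of other cell types, which holds the leukocyte antigen PTPRC, had no member with a symbol.

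TGFA, a ligand of the EGF receptor, was at 7.76 and 8.04 with HINFP siRNA, at 6.70 and 7.39 with CASP8AP2 siRNA, at 6.51 and 7.08 with NPAT siRNA and at 5.97 and 5.87 with control siRNA. The HINFP siRNA arrays lay above all others. The second replicate was the higher one with HINFP siRNA and in both comparators, but not with control siRNA. Its difference was 0.98 (SE 0.18, adjusted p 0.00767), and it was not called with the spread of the 6 arrays (adjusted p 0.0881) or without HINFP siRNA replicate 2 (0.84, adjusted p 0.115). GULP1, an adaptor in the engulfment of apoptotic cells, was at 7.95 and 8.20 with HINFP siRNA, at 6.76 and 7.08 with CASP8AP2 siRNA, at 7.34 and 7.29 with NPAT siRNA and between 7.50 and 7.53 with control siRNA. It rose from control with HINFP siRNA (0.56, adjusted p 0.00759) and fell with CASP8AP2 siRNA (-0.60, adjusted p 0.00290), and its difference was 0.96 (SE 0.10, adjusted p 0.000170). LRP5, a coreceptor for Wnt proteins, was at 7.38 and 7.39 against 6.23 to 6.85 with the comparators and 6.43 and 6.76 with control siRNA (0.78, SE 0.10, adjusted p 0.00110).

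Other genes higher than both comparators had smaller differences. CES8 (now CES4A), of the carboxylesterase family, was low in all groups, at 4.86 and 4.82 with HINFP siRNA, between 4.06 and 4.44 with the comparators and at 3.94 and 4.03 with control siRNA (0.61, SE 0.07, adjusted p 0.000332). OPTN, optineurin, a receptor of selective autophagy, was at 8.41 and 8.45 against 7.70 to 8.05 with the comparators (0.53, SE 0.08, adjusted p 0.00197). CD9, a tetraspanin, was at 10.13 and 10.25 against 9.58 to 9.85 (0.50, SE 0.07, adjusted p 0.00192). HINFP siRNA lay above control for CES8, OPTN and CD9, each called. CA11, a protein related to carbonic anhydrases, had a difference of 0.52 (adjusted p 0.00673), lost without HINFP siRNA replicate 1 (0.50, adjusted p 0.0600) or replicate 2 (0.54, adjusted p 0.0589). UPRT, related to uracil phosphoribosyltransferases, had a difference of 0.55 (adjusted p 0.0142), lost without replicate 1 (0.52, adjusted p 0.111) or replicate 2 (0.59, adjusted p 0.0916) of HINFP siRNA. FAM173B (now ATPSCKMT), a lysine methyltransferase of mitochondria, had a difference of 0.52 (adjusted p 0.00385), lost without HINFP siRNA replicate 2 (0.51, adjusted p 0.0536). HINFP siRNA was not called against control for UPRT (0.20, adjusted p 0.434) or FAM173B (0.21, adjusted p 0.233), and FAM173B fell from control with NPAT siRNA (-0.47, adjusted p 0.0121).

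BIRC3, an inhibitor of apoptosis that NF-kB induces, was higher than both comparators but below control. Its arrays were at 6.63 and 6.48 with HINFP siRNA, at 5.77 and 6.10 with CASP8AP2 siRNA, at 5.74 and 6.10 with NPAT siRNA and at 7.41 and 7.36 with control siRNA. All siRNAs lowered it from control, with differences of -0.83 for HINFP siRNA (adjusted p 0.00533), -1.45 for CASP8AP2 siRNA (adjusted p 7.31e-05) and -1.46 for NPAT siRNA (adjusted p 0.000148). The difference of 0.63 (SE 0.14, adjusted p 0.0189) was lost with the spread of the 6 arrays (adjusted p 0.0802) and without any 1 of 4 arrays, namely HINFP siRNA replicate 1 (0.55, adjusted p 0.149) or 2 (0.71, adjusted p 0.0888), CASP8AP2 siRNA replicate 1 (0.54, adjusted p 0.0582) and NPAT siRNA replicate 1 (0.54, adjusted p 0.0586). PION (now GSAP), the gamma-secretase activating protein, was at 6.39 and 6.24 with HINFP siRNA, within reach of control (6.23 and 6.29), and fell with both comparators (difference 0.49, SE 0.08, adjusted p 0.00447). Its call was lost with the spread of the 6 arrays (adjusted p 0.0525) and without HINFP siRNA replicate 1 (0.42, adjusted p 0.0629).

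Set against control, the 37 genes with a symbol were of 3 kinds. For 12 of 16 lower genes and 15 of 21 higher genes both HINFP siRNA arrays lay outside all 6 other U2OS arrays, control included. For 2 lower genes (SLC12A8 and SNAI1) and 2 higher genes (BIRC3 and C2orf42) they lay between the comparators and control, and for 2 lower and 4 higher genes they overlapped control. Over all 330 genes beyond both comparators, 239 had the HINFP siRNA arrays outside the 6 other arrays (136 higher and 103 lower) and 43 between the comparators and control. The 330 genes had them outside the 4 comparator arrays by selection. Of all genes on the array, 5216 had them outside those 4, called or not. Of these 5216 genes, 2635 had them outside the 6 others as well, which is 11.9% of all genes. The difference between HINFP and control siRNA was called for 10 of the 16 lower genes, including SNAI1, which rose, and for 12 of the 21 higher genes, including BIRC3, which fell. That comparison alone called 9.43% of all genes, and it shares the HINFP siRNA arrays with the one described here.

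**Figure D3:**
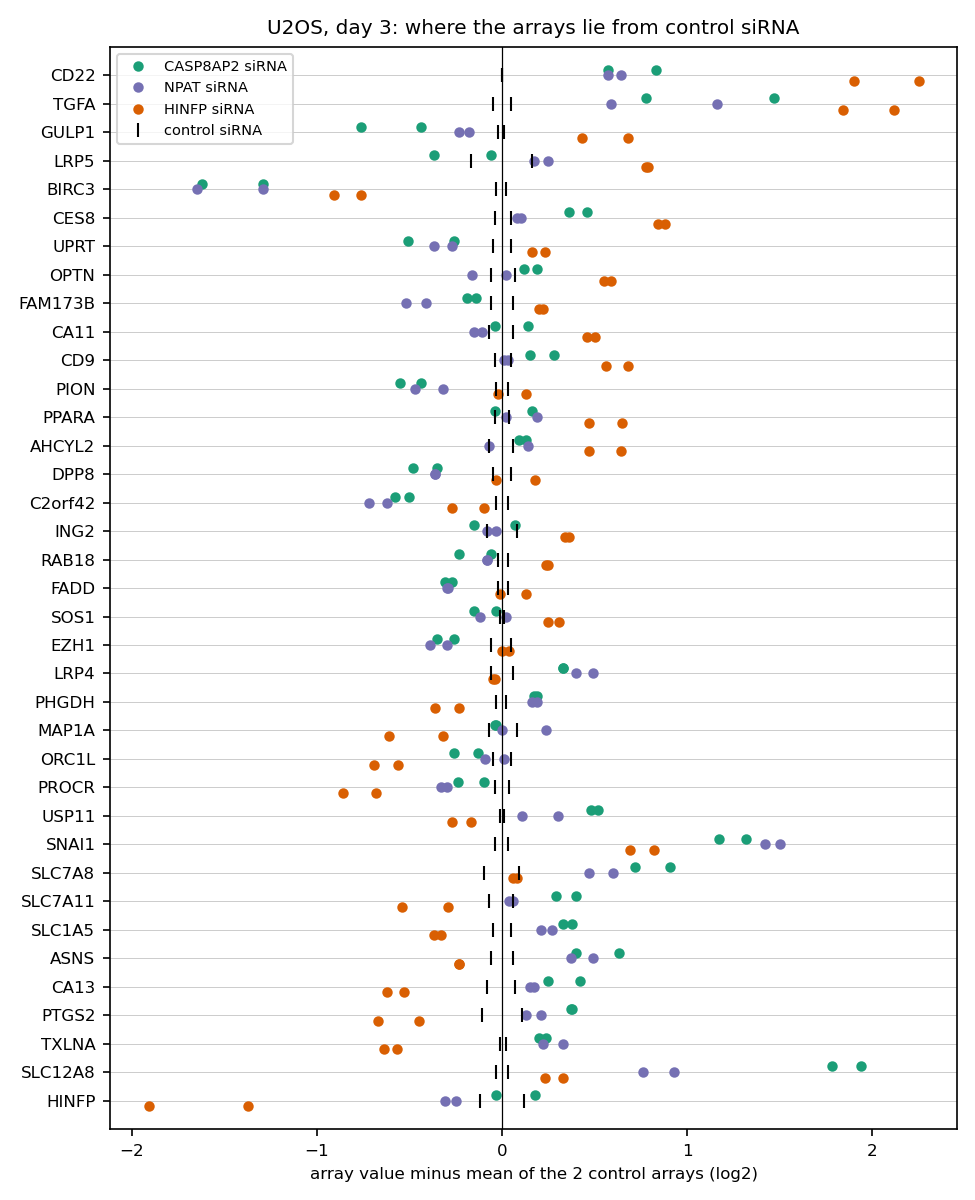
Log2 value of each U2OS array of day 3 minus the mean of the 2 control arrays, for the 37 genes with a symbol beyond both comparators, ordered by their difference. Colored points are the 2 arrays of each siRNA and black ticks the 2 control arrays. The HINFP siRNA points of CD22, TXLNA and HINFP lie outside all others, those of BIRC3 and SNAI1 lie between the comparators and control, and those of LRP4 and SLC7A8 lie at control.

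Of all genes with a symbol 6.61% were called, against which the counts in the lists are set. Of 14 genes of replication licensing and DNA synthesis with a symbol (38 in the list), ORC1L was lower and none was higher, with a median of -0.09. Values that were not called included CDC6 at 0.09, MCM3 at 0.08, CDT1 at -0.26 and the ribonucleotide reductase subunits RRM1 and RRM2 at -0.19 and -0.09. Of 13 genes of mitosis and the spindle and of 20 genes of checkpoints and homologous repair none was called, with medians of 0.01 and -0.05. Of 7 cyclin, CDK inhibitor and E2F genes, CCNA1 was lower and the other 6 were not called, with CCNE1 at 0.04, CCNE2 at -0.12 and E2F1 at -0.12.

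CCNA1, cyclin A1, which acts mainly in meiosis, was at 4.96 and 5.16 with HINFP siRNA, at 5.33 and 4.95 with NPAT siRNA and at 6.94 and 7.39 with CASP8AP2 siRNA. HINFP and NPAT siRNA overlapped and CASP8AP2 siRNA stood above both, so the difference of -1.09 (SE 0.16, adjusted p 0.00235) came from CASP8AP2 siRNA (adjusted p 6.43e-05) and not from NPAT siRNA (-0.08, adjusted p 0.915). The control arrays were at 4.28 and 4.00. All siRNAs raised CCNA1 from control, by 0.92 with HINFP siRNA (adjusted p 0.00795), 1.00 with NPAT siRNA and 3.02 with CASP8AP2 siRNA. Of the partners of HINFP, 8 of 15 had a symbol. Apart from HINFP and NPAT themselves none was called, with MBD2, a methyl-CpG binding protein that binds HINFP, at 0.13 and the deacetylase HDAC1 at -0.06. The 4 histone chaperone genes with a symbol, among them CHAF1B at -0.24 and RBBP4 at 0.16, were not called either. Of 10 replacement histone genes only H2AFX had a symbol, the gene of H2A.X that is phosphorylated at DNA breaks, and its difference was -0.19 (adjusted p 0.228). Of 20 histone mRNA processing factors, CASP8AP2 and NPAT were the only ones with a symbol.

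In the list of TGF-beta and Wnt response genes, 4 of 10 members with a symbol were lower with HINFP siRNA (3.23% of all genes with a symbol were) and none was higher, and the median was -0.24 against -0.01 for all genes. None of the 4 was beyond both comparators. WNT5A, a ligand of noncanonical Wnt signalling, was at 4.59 and 4.45 with HINFP siRNA, at 4.71 and 4.86 with CASP8AP2 siRNA and at 5.53 and 5.41 with NPAT siRNA, so that its difference of -0.61 (SE 0.09, adjusted p 0.00244) was called against NPAT siRNA only (-0.95, adjusted p 0.000327). It was lost by a small margin without HINFP siRNA replicate 2 (-0.54, adjusted p 0.0506). TGFBI, a matrix protein that TGF-beta induces, was at 7.82 and 7.52 with HINFP siRNA, at 8.63 and 8.70 with CASP8AP2 siRNA and at 7.73 and 7.88 with NPAT siRNA, and its difference of -0.57 (SE 0.09, adjusted p 0.00357) was called against CASP8AP2 siRNA (adjusted p 0.000192) and not against NPAT siRNA (-0.14, adjusted p 0.615). It was lost with the spread of the 6 arrays (adjusted p 0.0540) and without HINFP siRNA replicate 2 (-0.42, adjusted p 0.0712). NKD1 and SMAD7 were called against neither comparator alone, so the 4 calls did not share one comparator. They did not share a direction from control either. HINFP siRNA lowered WNT5A (-0.73, adjusted p 0.000927) and TGFBI (-0.37, adjusted p 0.0414) from control and raised NKD1.

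NKD1, an antagonist of Wnt signalling, was at 5.82 and 5.38 with HINFP siRNA and between 5.98 and 6.43 with the comparators (-0.58, SE 0.14, adjusted p 0.0372). The control arrays were at 4.97 and 5.08. All siRNAs raised NKD1 from control, by 0.58 with HINFP siRNA (adjusted p 0.0457), 1.13 with CASP8AP2 siRNA and 1.18 with NPAT siRNA. SMAD7, an inhibitor of TGF-beta signalling named after its value was seen, had a difference of -0.40 (adjusted p 0.0346). For NKD1 the adjusted p was between 0.0574 and 0.381 under the 6 alternatives that ended its call, the replicate number as a block and the spread of the 6 or 8 U2OS arrays among them. The ligand TGFB2 (0.23, adjusted p 0.371) and CTGF, a matrix-associated target of TGF-beta (-0.27, adjusted p 0.0524), were not called.

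Of 15 genes of the NF-kB list with a symbol, PTGS2 and IL1A were lower and BIRC3 was higher, where 6.61% of all genes with a symbol were called in either direction, with a median of -0.03. IL1A, interleukin-1 alpha, was at 6.44 and 6.91 with HINFP siRNA, at 6.96 and 6.93 with NPAT siRNA and at 8.10 and 8.00 with CASP8AP2 siRNA (difference -0.83, SE 0.17, adjusted p 0.0127). HINFP siRNA was lower than CASP8AP2 siRNA (-1.38, adjusted p 0.00145), and its difference from NPAT siRNA was -0.27 (adjusted p 0.576). The call was lost without HINFP siRNA replicate 1 (-0.59, adjusted p 0.152). The chemokine IL8 (-0.15), the inhibitor TNFAIP3 (-0.12) and NFKB1 (0.10) were not called. LOX, the lysyl oxidase that crosslinks collagen, was the only call among 14 osteoblast and bone matrix genes (-0.45, SE 0.09, adjusted p 0.0127), and it was called against NPAT siRNA (-0.74, adjusted p 0.00184) and not against CASP8AP2 siRNA (-0.17, adjusted p 0.417). It was lost with the spread of the 8 or 6 U2OS arrays (adjusted p 0.0606 and 0.104) and without HINFP siRNA replicate 1 (-0.31, adjusted p 0.156). None of 7 p53 target genes with a symbol was called, with the mediators of apoptosis BAX at 0.01, BBC3 at -0.10 and PMAIP1 at -0.09. None of 7 genes of cholesterol synthesis and uptake, 5 hypoxia-responsive genes, 3 interferon-stimulated genes, 2 protocadherin beta genes and 2 ribosomal protein genes with a symbol was called, and their medians lay between 0.01 and 0.06.

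**Figure D4:**
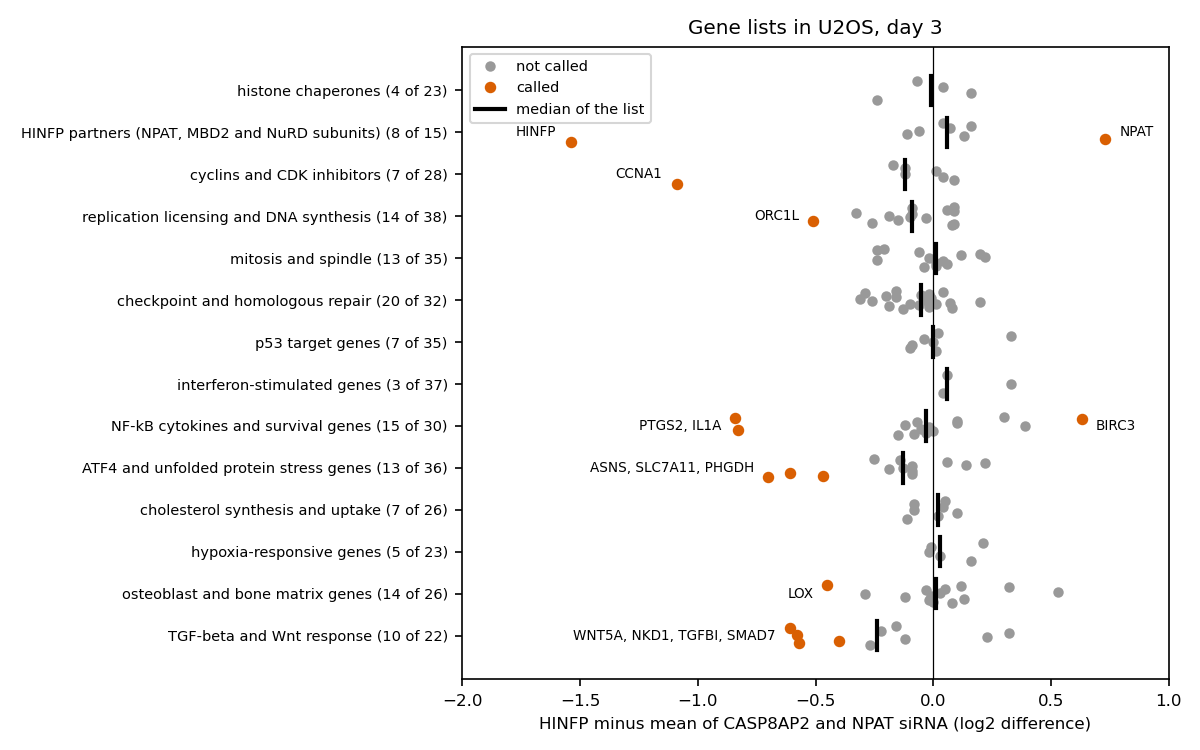
Log2 difference of HINFP siRNA from the mean of CASP8AP2 and NPAT siRNA in U2OS cells for the members of each list with 3 or more genes that have a symbol, with the number of such members and the size of the list in parentheses. Orange points were called at an adjusted p under 0.05 and are named, gray points were not, and the black bar is the median of the list. Points are spread vertically within a list only to separate them.

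The same difference was computed in hTERT-RPE1 cells, from arrays that take no part in the U2OS difference. There, 1009 genes were called (4.57%), 397 higher (1.80%) and 612 lower (2.77%). Of these, 229 were also called in U2OS cells, 20.7% of the U2OS genes and 22.7% of the hTERT-RPE1 genes, and 207 of the 229 had the same sign. The sign was the same for 76.1% of the 1108 genes called in U2OS cells, against 57.4% of all genes. Pearson's r between the lines across all genes was 0.278 and Spearman's rho was 0.243, where genes are not independent of each other.

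Of the 16 genes with a symbol that were lower in U2OS cells, 9 were also called lower in hTERT-RPE1 cells, the targeted HINFP among them. Of the 21 that were higher, 2 were also called higher (EZH1 and PPARA). The call in hTERT-RPE1 cells needed only a difference from the mean of the comparators, not from both. The median difference in hTERT-RPE1 cells was -0.41 for the lower genes and 0.14 for the higher ones, against -0.61 and 0.50 in U2OS cells. TXLNA (-0.80), ORC1L (-0.56), USP11 (-0.62), SLC7A8 (-0.78) and SLC1A5 (-0.44) were among the 9. So were SNAI1 and SLC12A8, for which HINFP siRNA overlapped NPAT siRNA in hTERT-RPE1 cells. SNAI1 was at 7.47 and 7.30 against 7.14 and 7.47, and SLC12A8 at 6.29 and 6.21 against 6.23 and 6.54. Over all 330 genes the contrast between directions was smaller, with 54 of 150 lower genes and 39 of 180 higher genes called with the same sign.

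**Figure D5:**
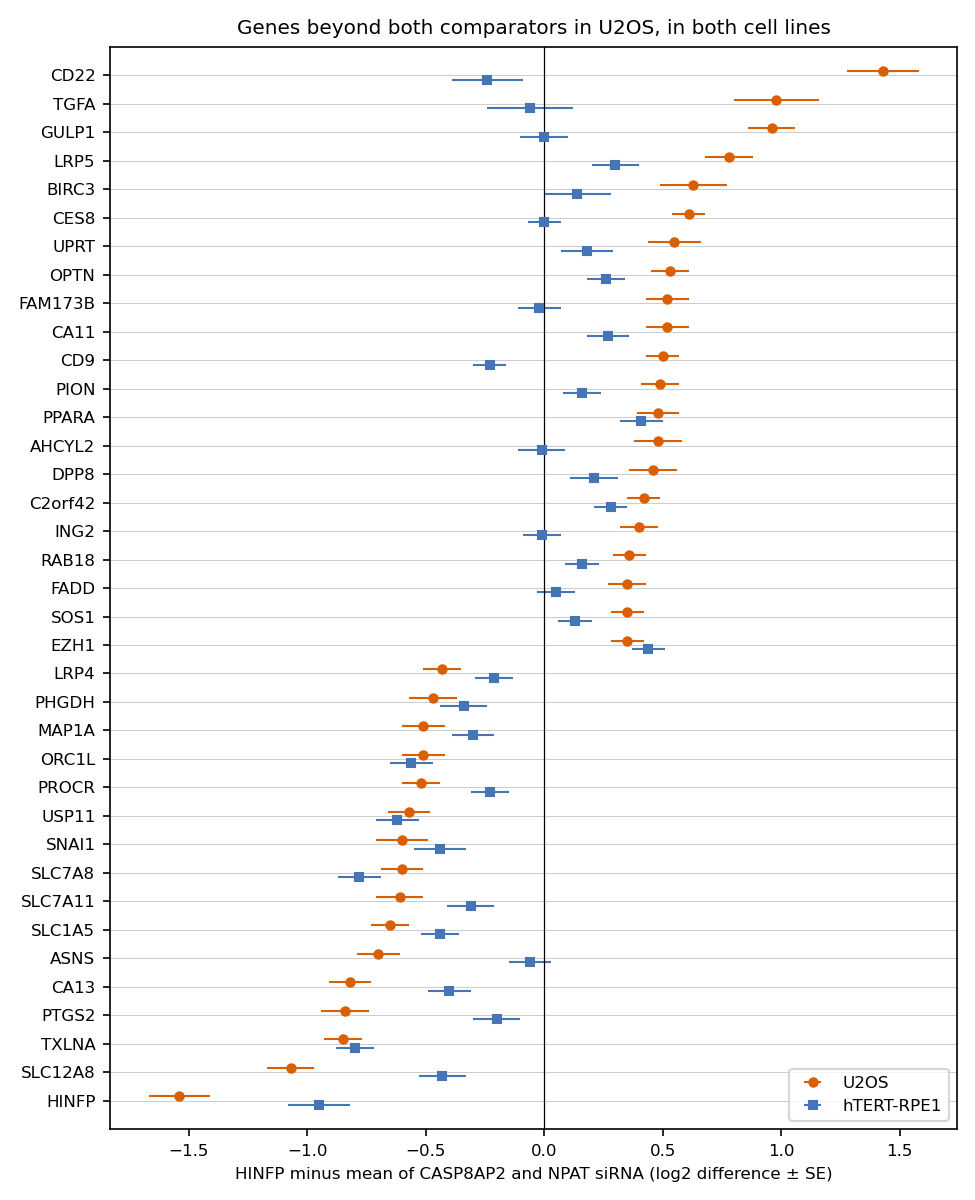
Log2 difference of HINFP siRNA from the mean of CASP8AP2 and NPAT siRNA in U2OS (orange circles) and hTERT-RPE1 cells (blue squares) for the 37 genes with a symbol beyond both comparators in U2OS cells; bars are the standard error. The genes were chosen in U2OS cells, so their U2OS values are far from 0 by construction, and the hTERT-RPE1 values of CD22, TGFA and GULP1 lie near 0.

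The difference between the lines was tested directly, as the U2OS value minus the hTERT-RPE1 value. It was called for 248 genes (1.12%), 146 with the higher value in U2OS cells (0.662%) and 102 with the lower (0.462%), and the count was between 83 and 158 without any 1 of 10 arrays, namely either replicate of any hTERT-RPE1 siRNA group and either replicate of NPAT or HINFP siRNA in U2OS cells. Among called genes with a symbol the largest line differences were those of CD22 and PGF one way and TGFBI and TNS1 the other. CD22 was at 5.01 and 4.38 with HINFP siRNA in hTERT-RPE1 cells, at 4.70 and 4.88 with CASP8AP2 siRNA and at 5.06 and 5.13 with NPAT siRNA, so the HINFP siRNA arrays overlapped the comparators, and the line difference was 1.67 (SE 0.21, adjusted p 0.00194). It was low in all groups of hTERT-RPE1 cells, with the control arrays at 4.33 and 4.17.

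PGF, placental growth factor, a ligand of the receptor VEGFR1, had differences from the comparators of opposite sign. In U2OS cells it was at 6.97 and 7.21 with HINFP siRNA and between 6.44 and 6.83 with the comparators (0.46, SE 0.10, adjusted p 0.0228). The control arrays were at 5.27 and 5.44. All siRNAs raised PGF from control, by 1.74 with HINFP siRNA, 1.37 with CASP8AP2 siRNA and 1.19 with NPAT siRNA. In hTERT-RPE1 cells it was at 4.95 and 4.83 with HINFP siRNA, at 6.01 and 6.08 with CASP8AP2 siRNA and at 5.39 and 5.54 with NPAT siRNA (-0.87, adjusted p 0.000582). The HINFP siRNA arrays there overlapped control (4.74 and 4.90), and the comparators lay above it. The line difference was 1.33 (SE 0.15, adjusted p 0.000744). The U2OS call alone was lost under 5 alternatives, with an adjusted p between 0.0699 and 0.274. TNS1, tensin 1, which links integrins to actin, was lower than the comparators in U2OS cells (-0.39, adjusted p 0.0261). In hTERT-RPE1 cells it was higher than they were (0.35, adjusted p 0.0447). There the HINFP siRNA arrays (9.27 and 9.36) overlapped control (9.52 and 9.32), and the comparators lay below, between 8.86 and 9.08. The line difference of TNS1 was -0.74 (SE 0.13, adjusted p 0.0160). Its U2OS call was lost under 6 alternatives, with an adjusted p between 0.0592 and 0.325.

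ASNS, lower in U2OS cells, had a difference of -0.06 in hTERT-RPE1 cells (adjusted p 0.828), where the HINFP siRNA arrays (6.51 and 6.60) overlapped those of CASP8AP2 siRNA (6.51 and 6.36). Both groups lay below the control arrays there (6.89 and 7.09), and NPAT siRNA was at 6.88 and 6.72. In U2OS cells the comparators lay above control. The line difference of ASNS, -0.64 (SE 0.13, adjusted p 0.0370), was called under 8 of 18 alternatives.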

How the data were processed

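RNA was hybridised to Affymetrix Human WT arrays. The authors processed these with the Bioconductor package affy, and the submitters' processing notes name RMA. They deposited 1 log2 value per Ensembl gene and array, through a custom probe grouping whose version and genome build are not given in the sources used here. The arrays of day 3 were taken as normalized apart from those of days 1 and 2, which were not used here.

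Groups came from the labels. Differences were fitted in R 4.3.3 with limma 3.58.1 (lmFit, eBayes) on the deposited log2 values of all 16 day 3 arrays, 1 mean per group (8 groups) and 8 residual degrees of freedom. The spread of a gene is therefore shared with control and hTERT-RPE1 arrays, although the difference uses only the 6 U2OS arrays. All tests are two-sided with Benjamini-Hochberg adjustment over 22069 genes, and called means an adjusted p under 0.05. The median standard error of the difference was 0.0983, with precision limited by the duplicate arrays. The fit was tested on simulated data.

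Symbols were those that the authors paired with Ensembl identifiers for genes of their siRNA screen, so most called genes (981 of 1108) are not named, and lists are covered in part. Named were the 12 largest differences each way beyond both comparators, the targeted genes, up to 3 called members of each list each way, the 2 largest line differences each way and the extremes of all genes. H1FX had no paired symbol. For 3 genes with a paired symbol the results are not reported here, and they were left out of the lists and of counts of genes with a symbol. ENSG identifiers are given as in the files, and promoters come from RefSeq by symbol. Values of the other genes beyond both comparators are shown in the plots. The comparison and the lists were chosen with earlier results of these data known.

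Alternatives were the arrays that share the spread, a replicate block, 3 scalings, a filter on low values, another prior of the spread, a minimum difference of 1 and leaving out single arrays.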

Additional observations from a re-analysis of the deposited data

Results flagged for a closer look

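The difference of HINFP siRNA from CASP8AP2 and NPAT siRNA was called as unequal in the cell lines for 11 of the genes described. The test was that of the U2OS value minus the hTERT-RPE1 value (limma, adjusted over all genes), which called 248 of all genes (1.12%). CD22, PGF, TGFBI and TNS1 are calls by selection, since they were named for the size of this line difference. The other genes were chosen by their U2OS values, which enter the line difference too, so the count of 11 is no independent result. The line difference was positive for ENSG00000185339 (2.67, adjusted p 0.000189), CD22 (1.67), PGF (1.33), GULP1 (0.96, adjusted p 0.00459), CD9 (0.73, adjusted p 0.00361), CES8 (0.61, adjusted p 0.00865) and FAM173B (0.55, adjusted p 0.0491). It was negative for TGFBI (-0.76, adjusted p 0.0150), TNS1 (-0.74), SLC12A8 (-0.65, adjusted p 0.0489) and ASNS (-0.64).

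ENSG00000185339, CD22, PGF, GULP1 and CD9 kept this call under all 18 alternatives. CES8 kept it under 16 of 17, TGFBI and TNS1 under 16 of 18, ASNS under 8, SLC12A8 under 5 and FAM173B under 4. The highest adjusted p was 0.0631 for CES8, 0.0754 for TGFBI, 0.0891 for TNS1, 0.158 for ASNS, 0.180 for SLC12A8 and 0.209 for FAM173B. GULP1 was at 8.64 and 8.75 with HINFP siRNA in hTERT-RPE1 cells and between 8.60 and 8.84 with the comparators, all below the control arrays (9.09 and 9.15). CD9 was at 9.90 and 9.83 with HINFP siRNA there, below the comparators (10.00 to 10.21) and above control (9.63 and 9.56). CES8 was low in hTERT-RPE1 cells, between 3.90 and 4.07 in all groups. ENSG00000185339 was at 6.34 and 5.89 with HINFP siRNA there, between NPAT siRNA (5.26 and 5.51) and CASP8AP2 siRNA (7.20 and 7.01). With 2 arrays in a group no array was tested as an outlier.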

How the results depend on the processing

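The number of genes called depended on the arrays that share the spread, on single arrays and on a minimum difference. For HINFP against the mean of the comparators, against CASP8AP2 and against NPAT siRNA, for CASP8AP2 against NPAT siRNA and for genes beyond both comparators, it was 578, 612, 453, 350 and 147 with the 8 U2OS arrays, and 323, 272, 236, 186 and 61 with the 6 arrays compared. A required difference of 1 left 53, 97, 78, 86 and 38, and 67 line differences. Leaving out single arrays gave 297 to 1323, 302 to 1528, 318 to 504, 200 to 1096 and 115 to 303, and 83 to 302 line differences. The lowest counts came without HINFP siRNA replicate 2 for the mean and for genes beyond both, without CASP8AP2 siRNA replicate 1 for both comparisons with CASP8AP2, without NPAT siRNA replicate 2 against NPAT, and without hTERT-RPE1 HINFP siRNA replicate 2 for the line difference. A lone array was assumed to vary like the other groups. Scalings, the filter, the prior and the block left every count within 1.5 times. The 6 tests of the targeted genes were called each time.

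With the replicate number as a block the counts were 1085, 1275, 833, 756 and 317, and 214 line differences. The replicates share only a number: deviations of same-numbered U2OS arrays correlated with r between -0.0178 and 0.169.

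For 49 genes, the 37 beyond both comparators among them, 606 of 682 values under the alternatives kept their call, 76 lost it and none changed sign. Without HINFP siRNA replicates 1 and 2, 18 and 21 calls were lost, and 20 genes kept their call throughout. These single-gene calls are those against the mean of the comparators. They do not cover the calls against each comparator alone, which being beyond both comparators also needs. The causes were not tested.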
